A study of Mus musculus with 2 samples.

Results

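Kupffer cells, the macrophages that live in the liver sinusoids, are recognised in mice by a small group of genes, and 8 of these were followed here: Clec4f, Timd4, Vsig4, Cd5l, Folr2, Id3, Nr1h3 and Spic. They were taken by symbol from the 32285 genes of the deposited count matrices, and each symbol matched 1 row. Their levels were read per marker-gated cell type and, cell by cell, in cells with at least 20 UMIs (unique molecular identifiers, tags that mark single RNA molecules) of C1qa, C1qb and C1qc together. These genes encode the chains of complement C1q, which tissue macrophages make. After filtering, 1818 of the 10336 cells in the wild-type library (17.6%) and 1881 of the 11428 in the knockout library (16.5%) belonged to this C1q-high group.

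The cells were non-parenchymal cells of the liver, that is, the suspension left when hepatocytes are depleted. They came from Mfap2+/+ (wild-type) and Mfap2-/- (knockout) mice, and both genotypes had received carbon tetrachloride (CCl4) by intraperitoneal injection for 8 weeks, a common way of inducing liver fibrosis. Mfap2 encodes a glycoprotein of extracellular microfibrils. Each genotype is represented by 1 droplet library, and the labels give neither the number, age and sex of the mice nor the extent of the deletion. Mice without CCl4 are not analysed here. A single library per genotype allows no test of the genotypes, and genotype, animal and library preparation cannot be told apart. All intervals below are 95% intervals for counting error only.

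Embryo-derived Kupffer cells keep their identity through signals from neighbouring endothelial and stellate cells, among them Notch ligands and ligands of the BMP and TGF-beta family. These act together with liver X receptor alpha, which Nr1h3 encodes. When Kupffer cells are lost during injury, monocytes enter the niche and take on the same genes in steps, with Timd4 among the slowest to appear. Timd4 is therefore widely used as a mark of long-resident cells, and Clec4f as a mark of Kupffer cells of either origin.

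The sequence just before the start of 4 members is shown because the comparison of Clec4f classes below turns on these genes, and because regulators of the same group (Nr1h3, a nuclear receptor, and Spic, an ETS factor) belong to families with known core motifs. The sequences come from RefSeq on GRCm38.p6 and are written 5′ to 3′ on the strand of the gene. Clec4f is at chr6:83656188-83656366 (minus strand, 179 bases), Timd4 at chr11:46810549-46810798 (plus strand, 250 bases), Vsig4 at chrX:96293439-96293688 (minus strand, 250 bases) and Cd5l at chr3:87357631-87357880 (plus strand, 250 bases). Capitals mark matches, on either strand, to GGAAGT (the ETS core), AGGTCA (a nuclear receptor half-site) and TGCTGA (a MAF half-site).
Clec4f: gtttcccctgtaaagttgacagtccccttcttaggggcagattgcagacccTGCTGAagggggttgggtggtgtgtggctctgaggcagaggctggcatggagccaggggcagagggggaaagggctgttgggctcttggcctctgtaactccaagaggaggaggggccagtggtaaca
Timd4: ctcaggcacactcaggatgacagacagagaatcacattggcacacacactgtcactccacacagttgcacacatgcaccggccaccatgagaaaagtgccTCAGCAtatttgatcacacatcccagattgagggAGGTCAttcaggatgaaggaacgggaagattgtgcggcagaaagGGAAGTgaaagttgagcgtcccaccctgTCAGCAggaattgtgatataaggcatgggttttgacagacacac
Vsig4: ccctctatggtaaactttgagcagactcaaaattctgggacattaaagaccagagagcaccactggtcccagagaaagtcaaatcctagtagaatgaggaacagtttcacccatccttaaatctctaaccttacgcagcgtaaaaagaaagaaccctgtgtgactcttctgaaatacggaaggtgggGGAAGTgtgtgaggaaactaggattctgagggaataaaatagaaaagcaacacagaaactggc
Cd5l: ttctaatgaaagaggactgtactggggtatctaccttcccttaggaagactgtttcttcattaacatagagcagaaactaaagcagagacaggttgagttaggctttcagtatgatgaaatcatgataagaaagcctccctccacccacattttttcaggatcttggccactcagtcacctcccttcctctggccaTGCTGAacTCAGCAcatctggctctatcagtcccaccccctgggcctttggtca
The last 71 bases of the 250-base Clec4f window lie inside the GENCODE M21 gene and are not printed, and the Clec4f matches to GGAAGT and AGGTCA stand there. In the Cd5l window the MAF half-sites face each other, starting 54 and 46 bases before the RefSeq start. All 8 members were found in RefSeq, with 10 start sites in all. Over 250 bases, GGAAGT was present in 5 of these 10 windows and in 19.7% of 32851 windows of all genes. AGGTCA was present in 2 of 10 (Clec4f and Timd4) and in 14.0% of all windows, and TGCTGA in 6 of 10 and in 16.1%. By gene, TGCTGA was present in 5 of 8, since Folr2 was counted for more than 1 window. All 250 bases lie inside the GENCODE M21 gene in the windows of Id3, Nr1h3 and Spic and in a further Folr2 window. No matches overlapped. A match describes the letters only and is not evidence that a factor binds.

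The libraries held 11783 wild-type and 12872 knockout barcodes with medians of 4685 and 6511 UMIs. C1q-high cells had medians of 11129 and 13440 UMIs, 21007312 and 26699837 UMIs in all. Mfap2, the targeted gene, had 257 UMIs over all wild-type barcodes and 4 over all knockout barcodes. The libraries shared 40 barcode sequences, and 1 of these was C1q-high in both. The threshold of 20 C1q UMIs does not fall in a gap between cells. Just below the threshold, at 15 to 19 UMIs, stood 111 wild-type and 254 knockout cells, and just above it, at 20 to 24, stood 96 and 116.

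Across 17 gated cell types, 6 of the 8 genes (Clec4f, Vsig4, Cd5l, Folr2, Nr1h3 and Spic) were at their highest in C1q-high cells in both libraries, as the plot of levels by cell type shows. Levels are given as CPM, the UMIs of a gene per 1e6 UMIs of the cell type. C1q-high cells held 82.7% of wild-type and 79.3% of knockout Cd5l UMIs among cells kept, and 82.1% and 79.0% of Clec4f UMIs. The shares were lowest for Timd4 (64.4% and 50.8%) and Id3 (60.2% and 61.7%). Timd4 was highest in type 1 dendritic cells in both libraries, although in the knockout library the interval overlapped that of migratory dendritic cells (10.9 to 39.1 CPM). Id3 was highest in mesenchymal cells of the wild-type library and in C1q-high cells of the knockout library. Thus 6 genes were highest in C1q-high cells, a gate that does not separate Kupffer cells from other macrophages. Id3 and Timd4 were also found at high levels outside this group.

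**Figure D1:**
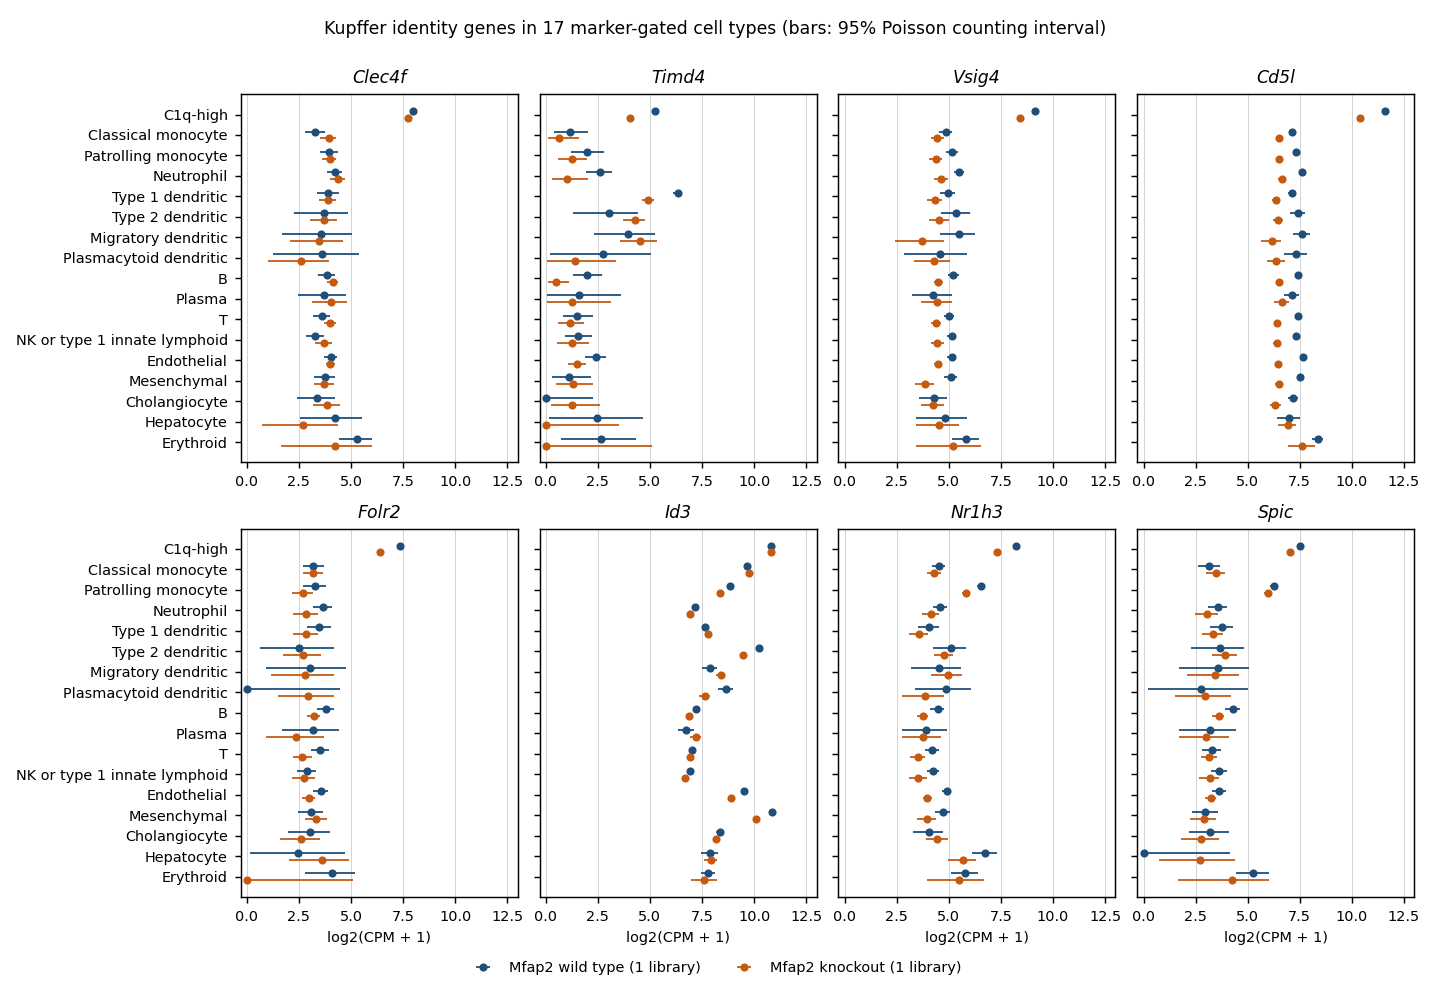
Level of each of the 8 genes, as log2(CPM + 1), in the 17 marker-gated cell types. Points are 1 library each (blue wild type, orange knockout) and bars are 95% Poisson counting intervals. C1q-high cells stand far to the right for Clec4f, Vsig4, Cd5l and Folr2, whereas Id3 spreads over many types and Timd4 peaks in type 1 dendritic cells.

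Free RNA from 1 source gives every cell type the same ratio between the genes of that source. For each of the 16 other types, UMIs of a gene per UMI of C1q were therefore divided by the same ratio in C1q-high cells. This quotient lay between 0.78 and 1.17 for Cd5l in the wild-type library and between 0.90 and 1.26 in the knockout library. For Vsig4 it lay between 0.67 and 1.42 and between 0.59 and 1.07, and for Clec4f between 0.63 and 1.64 and between 0.34 and 1.27. The medians over the 16 types were 0.95 and 1.06 for Cd5l, 1.02 and 0.94 for Vsig4 and 0.90 and 1.07 for Clec4f, in the wild-type and the knockout library. Single types lay further from 1, such as wild-type natural killer and type 1 innate lymphoid cells at 0.63 for Clec4f (8.71 CPM) and knockout mesenchymal cells at 0.59 for Vsig4. The part of free RNA in these levels was not tested, and B cells serve below as the level to compare with. Cd5l stood at 172 CPM in wild-type B cells and 89.95 in knockout B cells, and Clec4f at 13.2 and 16.3. Folr2 was likewise at 12.9 and 8.24 in B cells, with no type above a quotient of 2 in either library.

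Among the surface receptors, Clec4f, a C-type lectin that binds galactose-bearing glycans, stood at 249.96 CPM in wild-type C1q-high cells (243 to 257) and at 214 in knockout C1q-high cells (208 to 219). Its log2 ratio of knockout over wild type was -0.23 (-0.28 to -0.17). The direction was not stable, since thinning each cell to 1000 UMIs before summing gave 0.04 (-0.16 to 0.24). Cells with at least 1 Clec4f UMI were 37.2% (wild type) and 35.2% (knockout) of the C1q-high cells, so most had none. At 1000 UMIs per cell the shares were 14.0% (12.5 to 15.7) and 12.0% (10.6 to 13.6), against 1.66% and 1.73% in B cells, whose median depths were 3635 and 4928 UMIs. At this depth the intervals of the 2 libraries overlap. Among cells with at least 5000 UMIs, thinned to 5000, they were apart. There 70.5% (68.2 to 72.7) of wild-type and 77.4% (75.4 to 79.3) of knockout cells had no Clec4f UMI.

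Timd4, a receptor for phosphatidylserine on dying cells, was the rarest member. It stood at 37.5 CPM in the wild-type library (34.9 to 40.2) and at 15.7 in the knockout library (14.2 to 17.3), a log2 ratio of -1.25 (-1.43 to -1.08). The wild-type library had 787 Timd4 UMIs, carried by 180 cells (9.90%), and the knockout library had 419, carried by 119 cells (6.33%). The 5 richest cells held 13.7% and 22.4% of these UMIs, and without them the log2 ratio was -1.41. After thinning, 3.19% and 1.38% of the cells kept a Timd4 UMI. In thinned B cells the share was 0.119% in the wild type, and 0 of 1445 knockout B cells had a UMI, which allows a share of up to 0.208%.

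Vsig4, the complement receptor CRIg that captures opsonised particles from blood, stood at 559 CPM (549 to 569) in the wild-type library and at 344 (337 to 351) in the knockout library. The log2 ratio was -0.70 (-0.74 to -0.66). Folr2, folate receptor beta, stood at 160.3 (155 to 166) and 82.7 (79.2 to 86.2), which gives -0.96 (-1.03 to -0.88) on the log2 scale. At 1000 UMIs per cell, Vsig4 was detected in 26.1% of cells in the wild-type library and 18.6% in the knockout library, and Folr2 in 12.4% and 7.56%. For each of these receptors the counting intervals of the libraries were apart, with the knockout library lower. Folr2 overlaps the gene Gm10602 on the opposite strand, and the strand rule of the counting is not given in the sources used here.

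Cd5l, the secreted apoptosis inhibitor of macrophages that circulates bound to IgM, was the most abundant member in the wild-type library. It stood at 3089 CPM (3065 to 3113) there and at 1344 (1330 to 1358) in the knockout library, a log2 ratio of -1.20 (-1.22 to -1.18). At full depth Cd5l had a UMI in 93.7% and 82.7% of C1q-high cells, and in 48.2% and 34.9% of the shallower B cells. The median number of Cd5l UMIs in a cell that had any was 21 for wild-type cells but 6 for knockout cells. At 1000 UMIs per cell the shares were 65.0% and 41.1%, and in B cells they were 16.6% and 8.51%. The lower Cd5l of the knockout library was thus present both in the number of cells with a UMI and in the UMIs per positive cell.

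The transcription regulators did not share one pattern. Nr1h3, the oxysterol-sensing nuclear receptor, stood at 297 CPM (289 to 304) in the wild-type library and 158 (154 to 163) in the knockout library, a log2 ratio of -0.91 (-0.96 to -0.85). Spic, an ETS factor known for its induction by haem in iron-recycling macrophages, stood at 182 (176 to 188) and 130 (126 to 135), with the log2 ratio at -0.48 (-0.55 to -0.41). Id3, a helix-loop-helix protein that blocks DNA binding of its partners, stood at 1789 (1771 to 1807) and 1793 (1777 to 1809), with the log2 ratio at 0.00 (-0.02 to 0.02). Id3 was thus level between the libraries under this scaling, and at -0.14 under scaling by the median of ratios, which lowers every gene by 0.15. Nr1h3 overlaps Gm13783 on the same strand, which leaves its count uncertain.

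Over the 8 genes, 7 had a counting interval wholly below 0, where 19.6% of the 14907 genes with at least 20 UMIs did. Among the 5354 genes that reached 1000 UMIs in the C1q-high cells of both libraries together, which include all 8 members and have narrower intervals, that share was 35.4%, and 0.71% were at least 2-fold lower and 1.53% at least 2-fold higher. Timd4 and Cd5l were at least 2-fold lower in the knockout library (2 of 8, against 1.13% of all genes), and none was at least 2-fold higher (0 of 8, against 6.54%). No member had an interval wholly above 0, where 34.7% of genes did. The median log2 ratio was -0.80 for the members and 0.14 for all genes. Counted from the lowest ratio of all genes, Timd4 stood at percentile 0.523, Cd5l at 0.584, Folr2 at 1.34, Nr1h3 at 1.54 and Vsig4 at 3.16. Spic stood at percentile 7.86, Clec4f at 21.4 and Id3 at 38.8, so that Clec4f and Id3 lay well within the bulk of genes.

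**Figure D2:**
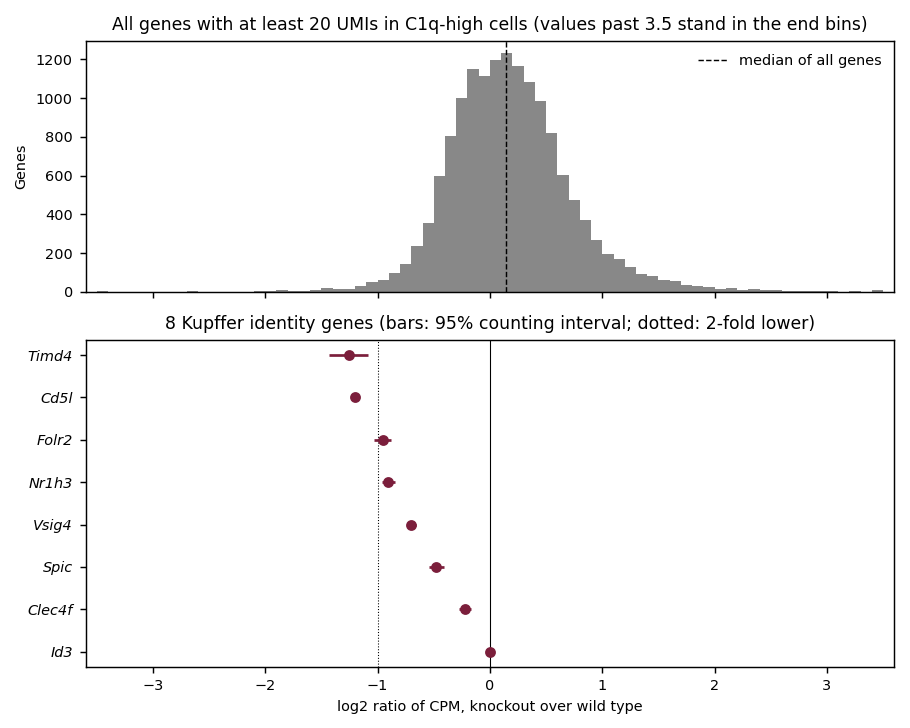
Upper panel: log2 ratio of CPM, knockout over wild type, for the 14907 genes with at least 20 UMIs in C1q-high cells, with their median at 0.14. Lower panel: the 8 members with 95% counting intervals, from -1.25 for Timd4 to 0.00 for Id3, with 7 intervals below 0.

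Other measures moved between the same cells. The heat shock and dissociation stress list was higher in knockout C1q-high cells in 11 of 12 genes, each with a counting interval wholly above 0 (against 34.7% of all genes), with a median log2 ratio of 0.71 beside 0.14 for all genes. In 5 of the 12 the difference was at least 2-fold, against 6.54% of all genes. Bag3, a chaperone cofactor, stood at 78.6 and 545 CPM, and Hsph1 at 279 and 1280. Egr1 had a log2 ratio of 0.13, and Junb was the exception at -0.03. Erythroid markers summed to 441 and 123 CPM, hepatocyte markers to 87.3 and 179, and endothelial markers to 105 and 152. Patrolling monocyte markers summed to 143 and 86.8. Every marker of these 4 lists had a UMI in C1q-high cells of both libraries, and over all lists only Fcer1a, a mast cell marker, was at 0, in the knockout library. The part of stress genes, depth and free RNA in the ratios of the 8 members was not tested.

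Counted per cell, fewer of the 8 genes were detected together in the knockout library. With each cell thinned to 1000 UMIs, C1q-high cells had a mean of 2.301 members in the wild-type library against 1.76 in the knockout library. At least 4 members were found in 19.0% (17.3 to 20.9) and 10.48% (9.14 to 12.0) of cells. Leaving Id3 aside, 23.6% and 43.3% of cells had none of the other 7. Without thinning the means were 4.75 and 4.20, and all 8 genes were present in 5.17% and 2.71% of cells. The direction was thus the same at full depth, where knockout cells are the deeper ones.

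**Figure D3:**
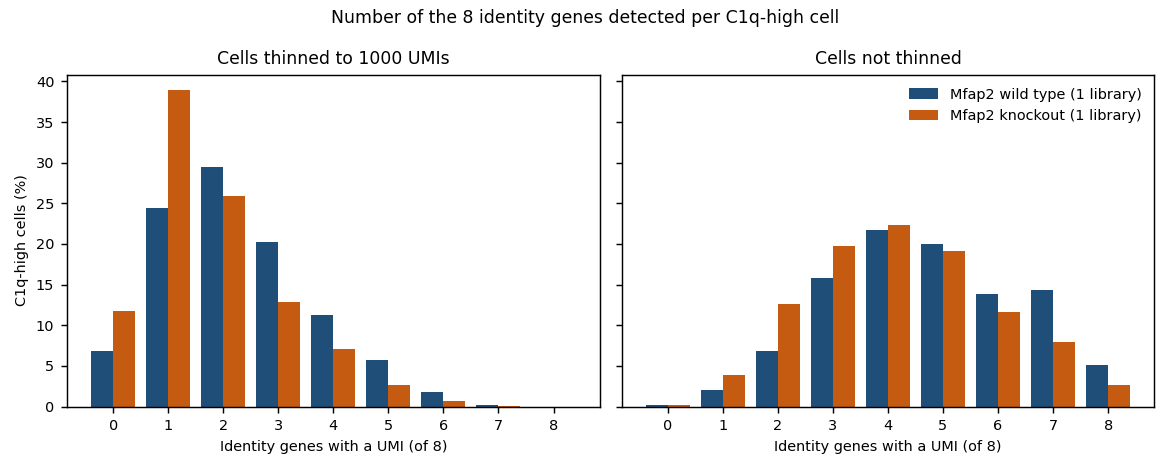
Share of C1q-high cells (percent) by the number of the 8 genes with a UMI, after thinning to 1000 UMIs (left) and at full depth (right). Knockout cells (orange) pile up at 1 gene after thinning, 38.9% of them, where wild-type cells (blue) have 24.4%.

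Pairs of members were found in the same cell more often than the product of their single shares in most cases. Of the 21 pairs without Id3, 21 wild-type and 20 knockout pairs had a ratio of observed to expected cells over 1, with medians of 1.52 and 1.77. The counting interval lay above 1 for 19 and 18 of them. The exception was Timd4 with Spic in the knockout library, with 2 cells observed. The ratio is limited by the share of the more common gene, so it can never be large for Cd5l or Id3. These ratios and the rank correlations below are descriptions over cells of 1 library each, which share depth and free RNA.

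The highest ratio was that of Clec4f with Timd4, a pair whose shares leave it more room than pairs with Vsig4, Cd5l or Id3. By rank correlation over cells this pair had 0.143 (wild type) and 0.172 (knockout). These were lower than 0.305 and 0.301 for Clec4f with Vsig4. In the wild-type library 24 cells had both where 8.14 were expected, a ratio of 2.95 (1.89 to 4.37). In the knockout library 15 cells had both where 3.13 were expected, a ratio of 4.80 (2.69 to 7.89). Of thinned cells with Timd4, 41.4% and 57.7% also had Clec4f, whereas 9.41% and 6.64% of cells with Clec4f had Timd4. At this depth, most cells with Clec4f had no Timd4 UMI in either library.

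Clec4f and Vsig4 were found together 2.21 times (wild type) and 2.61 times (knockout) as often as the product. By rank correlation over cells, Vsig4 and Cd5l reached 0.400 and 0.366, and Clec4f and Cd5l 0.374 and 0.403. Id3 stood apart from all others, with ratios from 0.818 to 1.02 (wild type) and from 0.906 to 1.05 (knockout). Its rank correlations ran from -0.092 to 0.009 and from -0.127 to 0.033. Id3 was found in 64.3% of thinned wild-type cells with Clec4f and in 72.9% of those without, and in 65.9% and 72.3% in the knockout library, so it was slightly rarer where Clec4f was found.

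**Figure D4:**
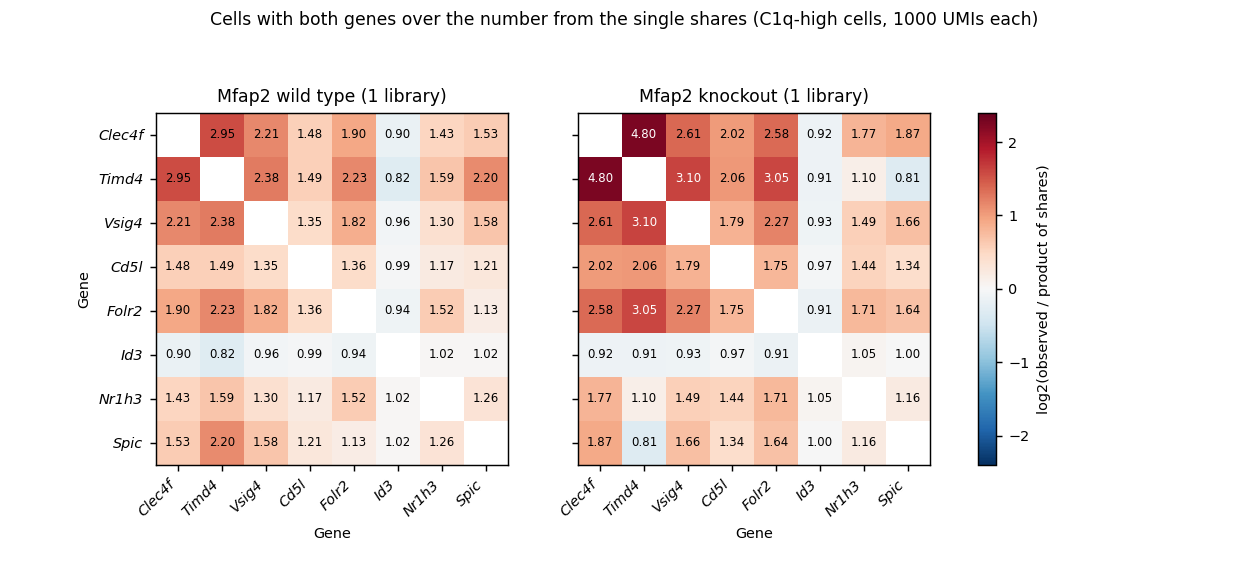
Cells with both genes of a pair divided by the number given by the product of the single shares, in C1q-high cells thinned to 1000 UMIs, wild type left and knockout right. The colour is the log2 of the ratio. Clec4f with Timd4 is the darkest pair (2.95 and 4.80), and the row of Id3 stays near 1.

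C1q-high cells were then divided by their own Clec4f UMIs. Whether a cell shows a Clec4f UMI also depends on its depth, and cells with none are not shown to be another kind of macrophage. Cells with no Clec4f UMI were 62.8% of the C1q-high cells in the wild-type library and 64.8% in the knockout library. Cells with 1 to 2 made up 13.9% and 18.4%, cells with 3 to 9 made up 12.0% and 6.59%, and cells with 10 or more made up 11.3% and 10.2%. The knockout library thus had a larger share of cells with 1 to 2 Clec4f UMIs and a smaller share with 3 to 9, whereas the shares of the highest class were close. At an equal depth of 5000 UMIs, which 1601 of the 1818 wild-type and 1780 of the 1881 knockout cells reached, 21.2% (19.2 to 23.3) and 14.0% (12.5 to 15.7) had at least 2 Clec4f UMIs. The shallower cells left out were a larger share of the wild-type library.

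Timd4 followed Clec4f most steeply. From no Clec4f to 10 or more, it stood at 5.68, 13.6, 77.7 and 148 CPM in the wild type. In the knockout the same classes had 2.13, 4.13, 30.4 and 96.2. Vsig4 went from 251 to 1477 in the wild type and from 204 to 1122 in the knockout across these classes. The class with 1 to 2 Clec4f UMIs had Vsig4 at 309 and 234. For Timd4 it lay above the class with none in the wild type, with counting intervals apart (9.75 to 18.4 against 4.43 to 7.18), while in the knockout these overlapped (2.59 to 6.25 against 1.48 to 2.96). Clec4f stood at 13.2 and 16.3 CPM in B cells, and the part of free RNA in this class was not tested.

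Cd5l was at 1822, 2796, 5952 and 6024 CPM in the 4 wild-type classes. In the knockout it was at 751, 982, 2443 and 4386. Cells without a Clec4f UMI thus still carried Cd5l well above the B cell level. The log2 ratios of knockout over wild type were -1.28, -1.51, -1.28 and -0.46, so the libraries were nearest to each other in the cells richest in Clec4f. The same held for Folr2, with ratios of -1.12, -1.20, -0.90 and -0.25, and for Nr1h3, with -0.84, -0.95, -1.13 and -0.54. It also held for Timd4, with -1.40, -1.69, -1.34 and -0.62. It did not hold for Vsig4, with -0.30 (-0.37 to -0.23), -0.40 (-0.52 to -0.27), -1.06 and -0.40 (-0.46 to -0.33). For this gene the intervals of the classes with none, 1 to 2 and 10 or more Clec4f UMIs overlapped.

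Spic had ratios of -0.54 and -0.59 in the classes with fewer than 3 Clec4f UMIs. In the other classes they were -0.04 (-0.24 to 0.15) and -0.13 (-0.26 to 0.01), both with intervals that include 0. Id3 went the other way along the classes, from 1943 CPM without Clec4f to 1437 with 10 or more in the wild type, and from 1894 to 1324 in the knockout. Of the 7 members, Id3 alone was lower in the class with the most Clec4f than in the class with none, and this was so in both libraries. The classes also differ in depth, with medians of 10529.5 and 12830 UMIs in cells without Clec4f and 15420 and 16701 in cells with 10 or more.

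With the knockout classes weighted to the wild-type mix of classes, the log2 ratios were -0.99 for Cd5l, -0.87 for Timd4, -0.83 for Nr1h3 and -0.70 for Folr2. They were -0.50 for Vsig4, -0.35 for Spic and -0.02 for Id3. For the 6 genes other than Id3 these values were nearer to 0 than the unweighted ratios and still below 0. The classes were made at full depth, where knockout cells are the deeper ones. The difference in level within a cell and a shift in the kinds of macrophage inside a class cannot be told apart.

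**Figure D5:**
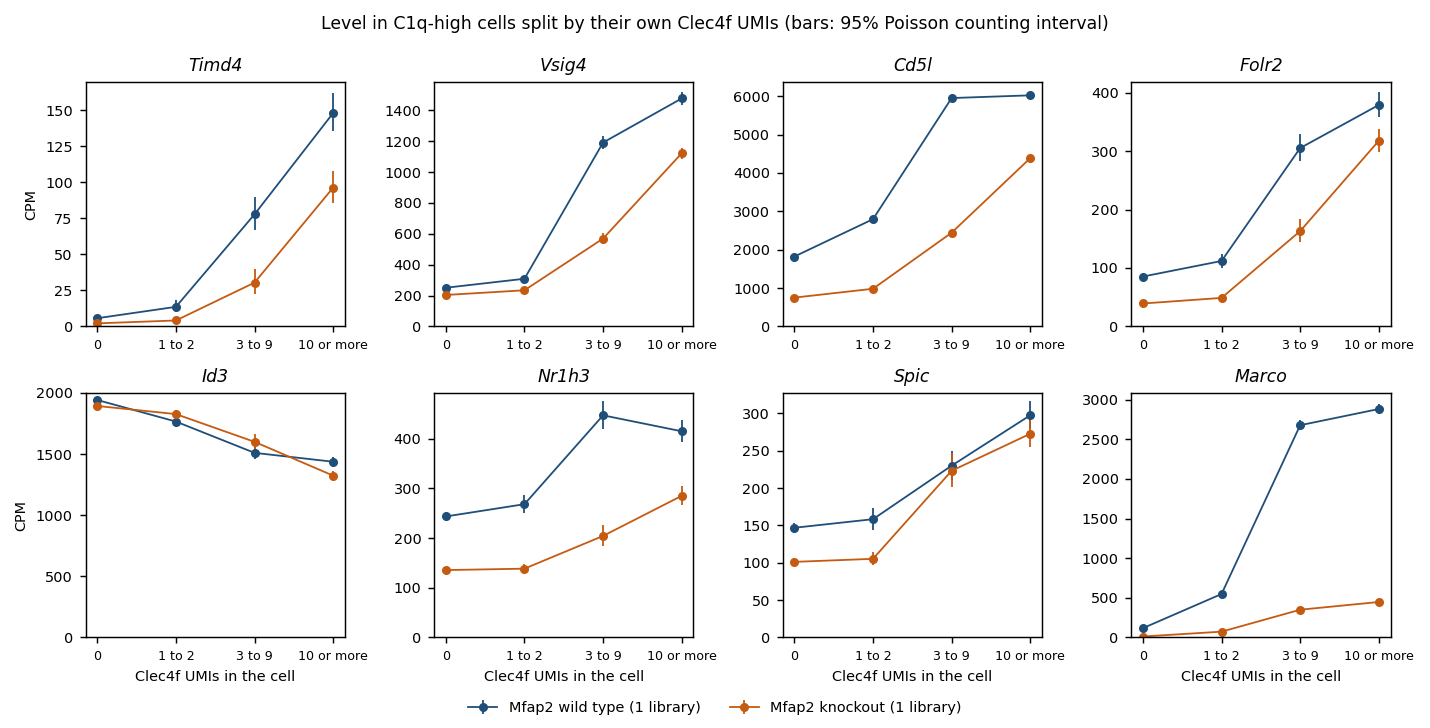
CPM of the other 7 members and of Marco in C1q-high cells divided by their own Clec4f UMIs (horizontal axis), with 95% Poisson counting intervals, wild type blue and knockout orange. Timd4, Vsig4, Cd5l and Folr2 go up with Clec4f in both libraries, Id3 goes down, and Marco is far lower in the knockout library in every class.

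Outside C1q-high cells, 4 members had quotients to C1q well above 1 in some types. The quotient to C1q was over 2 in 10 wild-type and 8 knockout types for Id3, in 4 and 6 for Nr1h3, in 6 and 3 for Timd4 and in 2 and 1 for Spic. Several of these types rest on few UMIs. For wild-type Timd4 there was 1 UMI each in plasmacytoid dendritic cells and hepatocytes, 3 in type 2 dendritic cells, 4 in migratory dendritic cells and 16 in neutrophils, so that type 1 dendritic cells alone had more than 16. Wild-type plasmacytoid dendritic cells and knockout erythroid cells had 5 Nr1h3 UMIs each, and wild-type erythroid cells had 14 Spic UMIs. Timd4 stood at 80.0 CPM (68.2 to 93.1) in wild-type type 1 dendritic cells, the cross-presenting dendritic cells that carry Xcr1 and Clec9a. In the knockout library it stood at 28.9 (23.2 to 35.5). Its quotient was 45.2 and 33.7. The 165 wild-type UMIs lay in 20 of 135 cells and the 90 knockout UMIs in 21 of 147 cells, and the 5 richest cells held 80.0% and 60.0% of them. A single wild-type cell had 53 Timd4 UMIs, so the log2 ratio of -1.46 rests on few cells.

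In these Timd4-positive dendritic cells Clec4f and Cd5l were near or below their B cell levels. Clec4f stood at 7.14 CPM (2 UMIs) in wild-type type 1 dendritic cells with Timd4 and at 15.1 (27 UMIs) in those without. In the knockout library it stood at 13.7 (6 UMIs) and 13.8 (37 UMIs). These few UMIs give no firm level for Clec4f in the cells with Timd4. Of the markers of this dendritic cell type, Clec9a stood at 307 in cells with Timd4 and 273 in cells without in the wild type, and at 286 and 284 in the knockout. Xcr1 went the other way, at 111 and 181 in the wild type and 142 and 167 in the knockout. Cd5l was at 143 and 137 in the wild type and 84.6 and 80.2 in the knockout, near the level in B cells. Timd4 was also found in type 2 dendritic cells (7.09 and 18.2) and migratory dendritic cells (14.6 and 21.8), on 3 to 27 UMIs per library.

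Id3 was widespread. It stood at 1887 CPM (1834 to 1942) in wild-type mesenchymal cells, the group that holds stellate cells and fibroblasts, and at 1092 (1053 to 1133) in knockout mesenchymal cells, a log2 ratio of -0.79 (-0.86 to -0.72). In endothelial cells it stood at 735 and 476, a log2 ratio of -0.63 (-0.69 to -0.57). Type 2 dendritic cells had 1211 and 697 (-0.80), and patrolling monocytes had 464 and 332 (-0.48). Classical monocytes had 810.4 and 855 (0.08, 0.00 to 0.15). Id3 was thus lower in the knockout library in mesenchymal and endothelial cells and level in C1q-high cells, and a test of that difference was not possible.

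Nr1h3 and Spic were shared with patrolling monocytes, the Ly6c-low monocytes that crawl along vessel walls. Nr1h3 stood at 92.1 CPM in wild-type and 55.4 in knockout patrolling monocytes, with quotients to C1q of 5.41 and 5.70. Its log2 ratio there was -0.73 (-0.996 to -0.47). Spic stood at 75.3 and 61.3 with quotients of 7.21 and 7.66, and its log2 ratio was -0.30 (-0.56 to -0.02). In classical monocytes Nr1h3 stood at 21.8 and 18.4, beside 20.9 and 12.4 in B cells. Spic stood there at 7.86 (5.14 to 11.5) and 10.02, beside 18.2 (14.0 to 23.4) and 11.1 in B cells, so that in the wild type it was lower than in B cells. Hepatocytes, of which 39 and 80 were in the suspension, had Nr1h3 at 107 and 49.99, on 24 and 18 UMIs.

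Across the 34 points given by 17 types in 2 libraries, the level of a member followed the mean of the other 7 most closely for Vsig4 (Pearson r 0.900), Cd5l (0.876) and Clec4f (0.844). Nr1h3 (0.717), Folr2 (0.696) and Spic (0.694) came next, and Id3 (0.482) and Timd4 (0.426) were last. The genes outside the list whose profile over types was most like the mean of the 8 were C1qc (0.909), C1qa (0.890), Sdc3 (0.865), C1qb (0.863) and 4930430E12Rik (0.854). The C1q genes chose the cells, so their place is set by the gate. Points of a library share its free RNA, and the part of free RNA in these values was not tested.

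Over single C1q-high cells, the genes outside the list most like Clec4f were Apoc1 (rank correlation 0.364, the lower of both libraries), C6 (0.246), Ptprm (0.226), Wfdc17 (0.225) and Marco (0.224). Among 11510 genes ranked in this way, Cd5l was 1st and Vsig4 the third. Timd4 came at rank 22, Folr2 at 24, Nr1h3 at 56 and Spic at 62. Id3 came at rank 11419, near the bottom. The values are small, as is usual for sparse counts, and describe an order only.

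Most other genes of Kupffer cells had ratios in the same direction as the members. Of 13 other Kupffer genes, 11 were lower and 2 higher in knockout C1q-high cells, with a median log2 ratio of -0.45. Over all genes, 5727 of 14907 were lower. The counting interval lay wholly below 0 for 10 of the 13, against 19.6% of all genes. Of the 13, 5 were at least 2-fold lower, against 1.13%. Among genes with at least 1000 UMIs these shares were 35.4% and 0.71%. The list, Marco included, was chosen with earlier results of these data known, so the counts are a description only. Marco, a scavenger receptor for bacteria, stood at 903 and 97.6 CPM (log2 ratio -3.21, -3.27 to -3.15). Cd163, the haemoglobin-haptoglobin receptor, stood at 20.2 and 5.47 (-1.88). The 5 richest cells held 13.1% (wild type) and 24.0% (knockout) of the Marco UMIs. For Cd163 they held 26.4% of 425 and 36.3% of 146 UMIs. Hmox1, the haem-degrading oxygenase, had 0.07, and Lyve1, a hyaluronan receptor, had 0.35 with an interval that includes 0. Marco was lower in the knockout library in each Clec4f class, with log2 ratios from -3.36 to -2.69, a wider gap than any of the 8 members had.

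In the gene lists of pathways tied to the members, ratios lay on both sides of 0. Of 10 targets of liver X receptors, 4 were lower and 6 higher in the knockout library, with a median log2 ratio of 0.15 beside -0.91 for Nr1h3 itself. The counting interval lay wholly below 0 for these 4 and wholly above 0 for these 6, against 19.6% and 34.7% of all genes. Scd2, a fatty acid desaturase, had -1.26 and Pltp, a phospholipid transfer protein, had -0.61. Mertk, a receptor for dying cells, had 0.45 and Lpcat3, an enzyme of membrane phospholipid remodelling, had 0.49. Of 17 other macrophage transcription factors, 8 were lower and 9 higher (median 0.04), from -0.34 for Rxra, the partner of liver X receptors, and -0.33 for Cebpb to 0.65 for Atf3 and 0.74 for Runx1. None of these 17 reached a 2-fold difference, where 1.13% of all genes were at least 2-fold lower and 6.54% at least 2-fold higher. Their intervals lay wholly below 0 for 7 and wholly above 0 for 8, against 19.6% and 34.7% of all genes. Among genes with at least 1000 UMIs, the share wholly below 0 was 35.4%.

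Receptors and responders of BMP and TGF-beta signalling, the pathway upstream of Id3, were lower in 2 and higher in 8 of 10 genes (median 0.26, beside 0.14 for all genes). All 8 had intervals wholly above 0, against 34.7% of all genes. Bmpr1a had -0.35, Acvrl1 -0.12, Skil 0.63 and Smad7, an inhibitory responder, 0.88. Notch receptors and targets (7 genes) had a median of 0.03, with Hes1 at -0.42, Hes6 at -0.11, Hey1 at 0.16 and Notch1 at 0.20. Of the 7, 2 had intervals wholly above 0 and 1 wholly below, against 34.7% and 19.6% of all genes.

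The ligands of the niche were read by cell type. Dll4, a Notch ligand, was highest in endothelial cells at 57.8 CPM in the wild type (51.7 to 64.4) and 51.3 in the knockout (47.1 to 55.8). Bmp2 stood at 619.7 (599 to 641) and 1106 (1087 to 1127) in endothelial cells, and Bmp6 at 171 (160.0 to 182) and 247 (238 to 257). Gdf2, which encodes BMP9, was nearly limited to mesenchymal cells at 211 (193 to 229) and 131 (118 to 146), and Bmp10 stood there at 45.3 (37.4 to 54.4) and 23.8 (18.3 to 30.4). Of the growth factors that macrophages need, Csf1 stood at 217 (199 to 236) and 166 (151 to 182) and Il34 at 96.5 (84.8 to 109) and 65.0 (55.6 to 75.4) in mesenchymal cells. In endothelial cells Csf1 went the other way, from 104 (95.7 to 113) in the wild type to 138 (131 to 146) in the knockout, and likewise in neutrophils, from 77.2 (67.9 to 87.5) to 133 (120.4 to 147). Jag1 was highest in cholangiocytes (71.7 and 71.3) and stood at 25.02 (19.2 to 32.0) and 36.3 (29.4 to 44.3) in mesenchymal cells, and Tgfb1 was highest in natural killer and type 1 innate lymphoid cells (241 and 234). In mesenchymal cells Gdf2, Bmp10, Csf1 and Il34 were thus lower in the knockout library, in endothelial cells Bmp2, Bmp6 and Csf1 were higher, and whether this bears on the 8 members was not tested.

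On GRCm38 with GENCODE M21, the members lie on separate chromosomes: Clec4f at chr6:83644542-83656187 (minus strand), Timd4 at chr11:46810800-46844332 (plus), Vsig4 at chrX:96247203-96293438 (minus) and Cd5l at chr3:87357881-87371073 (plus). Folr2 is at chr7:101839988-101857194 (minus), Id3 at chr4:136143497-136145755 (plus), Nr1h3 at chr2:91184061-91202834 (minus) and Spic at chr10:88674772-88685015 (minus). All 8 are protein-coding.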

How the data were processed

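The authors deposited raw UMI counts per gene and barcode for 2 Chromium 3′ v3 libraries. The file headers name Cell Ranger 7.0.1, whereas the submitters' processing notes name Cell Ranger 3.1.0, Seurat and build mm10. Which of these made the files, and whether intronic reads were counted, is not given in the sources used here. The lowest barcode total was 500 UMIs in each library.

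Barcodes under 200 genes or over 20% mitochondrial UMIs were dropped (413 wild-type, 149 knockout). Scrublet scores (scanpy 1.11.5) then removed the highest-scoring 0.8% per 1000 cells, 1034 and 1295 cells, because its automatic threshold marked 1 wild-type cell and so had not worked there. C1q-high cells had at least 20 C1q UMIs. A cell took another type when at least 3 of its markers were present and their share of UMIs was at least 3 times that of the library. Cells with a second type were left out (161 and 217 C1q-high cells). Of 19 gates, 17 had at least 20 cells in both libraries. This version of the gates was set after a first version was seen to overlap.

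UMIs were summed per type and scaled to 1e6 (CPM). Log2 ratios have 1 count added and exact conditional intervals. Levels have exact Poisson and shares Clopper-Pearson intervals at 95%. An upper limit for a count of 0 is 3 counts. Detection was compared at 1000 UMIs drawn from every cell, and shallower cells (1 wild-type and 2 knockout C1q-high cells, 4 B cells in each library) did not enter. Of 32285 gene identifiers, 32158 (99.61%) occur in GENCODE M21. Intervals were tested on simulated data. Python 3.11.15, numpy 2.4.6 and scipy 1.17.1 were used.

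All 8 members are named. Of each companion list the lowest 2 and highest 2 ratios among genes with at least 100 UMIs are named, and 5 genes by each measure of likeness. Ccr2 and further niche ligands are named beyond this rule. Members, lists and markers were chosen with earlier results of these data known. The alternatives changed the C1q threshold, the gate, doublets, the cell filter, thinning, scaling and the richest cells. The alternative that calls a second type at 5 times the library share, the classes by Clec4f UMIs with their weighting, and the split of dendritic cells by Timd4 were added after the data were seen.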

Additional observations from a re-analysis of the deposited data

Results flagged for a closer look

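Barcodes that the filter on genes or mitochondrial share had removed enter no comparison above, yet they held UMIs of the 8 members beyond the level of B cells, which is why they are listed. The members summed to 2124 CPM in 413 removed wild-type barcodes, beside 425 in wild-type B cells. In 149 removed knockout barcodes they summed to 888 CPM, beside 277 in knockout B cells. These barcodes had medians of 764 and 821 UMIs and held 0.45% and 0.09% of all UMIs of the members.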

How the results depend on the processing

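The median log2 ratio of the 8 members was below 0 in all 11 alternatives, from -0.95 to -0.72. It was -0.86 with a C1q threshold of 10 UMIs, -0.86 with cells of a second type kept, -0.72 with cells thinned before summing, -0.75 as a mean over cells and -0.95 with scaling by the median of ratios. Clec4f changed sign in 1 of the 11, to 0.035 after thinning, with an interval from -0.16 to 0.24, and was -0.11 as a mean over cells. Id3 lay between -0.14 and 0.04. The other 6 members were below 0 in all 11. The share of cells with at least 4 members was 35.1% and 19.5% (wild type and knockout) at 2000 UMIs and 75.1% and 63.6% without thinning. Clec4f with Timd4 was found in 1.32% and 0.798% of cells, in 2.94% and 2.10% at 2000 UMIs and in 7.76% and 4.94% without thinning; more UMIs per cell raise both by construction. The median share of UMIs held by C1q-high cells was 79.1% and 75.0%. It was 81.0% and 76.5% at a C1q threshold of 10, 72.9% and 70.5% at 50, 73.0% and 69.4% with no doublets removed, and 84.6% and 81.0% with a second type kept. It was 82.7% and 79.0% with the second type at 5 times the library share, an alternative chosen after seeing the data. In the wild type it was 81.6% with a gate by C1q share and 80.2% with the stricter cell filter. The cause of the other shifts was not tested. No paired analysis was possible because each genotype has 1 library. Depth limits Timd4 most, with 58 and 26 thinned cells that had a UMI.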

Other observations

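Genes of monocyte-derived and scar-associated macrophages had ratios on both sides of 0. Of 12 such genes, 6 were lower and 6 higher in knockout C1q-high cells, with a median log2 ratio of 0.03. Over all genes, 5727 of 14907 were lower, with a median of 0.14. Intervals lay wholly below 0 for 5 of the 12 and wholly above 0 for 6, against 19.6% and 34.7% of all genes. At least 2-fold lower was 1 of the 12, against 1.13%. Lpl, lipoprotein lipase, stood at 527 and 263 CPM (log2 ratio -1.003), and Mmp12, a macrophage elastase, had -0.32. Gpnmb, a glycoprotein of lipid-loaded macrophages, had 0.51, and Ly6c2, a marker of classical monocytes, stood at 19.7 and 28.5 (0.53). Ccr2, the receptor that brings monocytes into tissue, stood at 88.4 and 94.9. Ly6c2 and Ccr2 are markers of the classical monocyte gate, and C1q-high cells that also passed it had been left out. The ratios of these genes are therefore partly set by the gate.

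Type 1 dendritic cell markers summed to 620.0 CPM in wild-type and 876 in knockout C1q-high cells, after cells gated as that type had been left out. Cycling markers summed to 89.2 and 146, with 28 and 39 C1q-high cells that passed the cycling gate. Cells that passed no gate carried the 8 members at 1290 and 943 CPM in sum, beside 6363 and 4082 in C1q-high cells. The barcodes removed as doublets carried 2308 and 1341 and held 13.1% and 14.4% of all UMIs of the members.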
